A study of Mus musculus with 20 samples.

Results

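Promoter methylation was read at 7 imprinted loci that hold 8 named genes: Mcts2 and its host gene H13, Nap1l5, Zrsr1, Inpp5f, Nnat, Peg13 and Impact. All promoter windows of the deposited table whose start lies in a fixed GRCm39 interval around each locus were taken, without regard to their values, which gave 18 windows of 3500 bp out of 54034. Windows that overlap share bases, so they were joined into runs; the 18 windows form 16 runs out of 44959, numbered within each locus along the chromosome, and a run is a single window in all but Nnat run 3 and Zrsr1 run 2, which join 2 windows each. Each value is the methylation of a window in percent, from bisulfite sequencing of the DNA of a single mouse blastocyst. Fewer methylated cells and less methylation per cell therefore cannot be told apart.

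The Padi6-mutant group held 10 blastocysts (replicates 11 to 20), derived from oocytes with the Padi6 P620A mutation per the series' design text, and the control group held 10 (replicates 1 to 10). The labels give no strain, maternal age, litter or embryo sex, nor what allele the control mothers carried, and methylation alone cannot check the tissue label. PADI6 is made in the oocyte and is part of the subcortical maternal complex, a protein assembly that the egg hands to the embryo. Read depth is unknown; values were present for 38549 to 43812 windows in 3 densely covered mutant embryos and 2875 to 13847 in the other 7, against 37049 to 46950 in 6 densely covered control embryos and 4984 to 17002 in the other 4.

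At an imprinted locus the copies from mother and father carry different DNA methylation, which the germ line sets and which the embryo keeps through the general loss of methylation before implantation. DNMT1, brought to replicating DNA by UHRF1, copies the methylation at each division, and in mouse the zinc finger protein ZFP57 binds methylated TGCCGC and guards many imprints. The loci described here are methylated on the maternal copy. Mcts2, Nap1l5, Zrsr1 and a transcript of Inpp5f arose by retrotransposition into an intron of a host gene, Nnat and Peg13 also lie in introns of host genes (Blcap and Trappc9), and the imprinted CpG island of Impact lies in its own intron.

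The promoters of the genes that the results turn on are shown because most methylation of mammalian DNA lies at CpG sites, and capitals mark each CpG. They come from RefSeq on GRCm38.p6, another build than that of the windows, so their positions cannot be set beside those of the windows. Each holds 250 bases before and 50 after the start of the gene.
Mcts2 (chr2:152686898-152687197, GRCm38.p6, plus strand): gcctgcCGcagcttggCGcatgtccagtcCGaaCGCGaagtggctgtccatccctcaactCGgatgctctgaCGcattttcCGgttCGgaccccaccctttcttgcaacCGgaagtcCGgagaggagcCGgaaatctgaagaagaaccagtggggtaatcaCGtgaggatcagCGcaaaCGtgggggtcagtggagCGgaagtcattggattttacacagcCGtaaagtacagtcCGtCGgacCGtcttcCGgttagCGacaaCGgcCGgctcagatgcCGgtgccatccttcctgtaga
H13 (chr2:152669211-152669510, GRCm38.p6, plus strand): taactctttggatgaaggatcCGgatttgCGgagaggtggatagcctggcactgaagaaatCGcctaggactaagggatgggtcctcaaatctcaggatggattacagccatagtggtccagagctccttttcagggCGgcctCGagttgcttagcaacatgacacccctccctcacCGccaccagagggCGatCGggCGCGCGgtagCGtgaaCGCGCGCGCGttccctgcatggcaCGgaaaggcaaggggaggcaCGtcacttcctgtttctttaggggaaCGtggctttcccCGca
Nap1l5 (chr6:58907077-58907376, GRCm38.p6, minus strand): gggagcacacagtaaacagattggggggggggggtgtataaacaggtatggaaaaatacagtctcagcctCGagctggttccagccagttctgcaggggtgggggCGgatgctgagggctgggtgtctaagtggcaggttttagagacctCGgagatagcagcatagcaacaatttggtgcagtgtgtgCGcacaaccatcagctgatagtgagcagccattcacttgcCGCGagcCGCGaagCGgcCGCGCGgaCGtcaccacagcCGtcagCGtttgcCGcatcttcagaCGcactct
Zrsr1 (chr11:22971755-22972054, GRCm38.p6, plus strand): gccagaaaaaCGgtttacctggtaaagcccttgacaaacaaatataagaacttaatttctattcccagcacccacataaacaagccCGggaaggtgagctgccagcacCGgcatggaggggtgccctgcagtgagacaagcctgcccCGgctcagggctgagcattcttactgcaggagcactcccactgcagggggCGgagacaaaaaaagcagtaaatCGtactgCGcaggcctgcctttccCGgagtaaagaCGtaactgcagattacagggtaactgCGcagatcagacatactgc
Nnat (chr2:157559828-157560127, GRCm38.p6, plus strand): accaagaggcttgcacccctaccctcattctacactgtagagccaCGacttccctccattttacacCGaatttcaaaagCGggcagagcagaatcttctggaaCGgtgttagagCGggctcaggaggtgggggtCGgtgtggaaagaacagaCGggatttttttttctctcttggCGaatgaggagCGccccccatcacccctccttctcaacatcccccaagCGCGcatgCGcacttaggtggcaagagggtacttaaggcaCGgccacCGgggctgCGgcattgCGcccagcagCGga
Of the 8 genes, 6 had a promoter in this table. The Mcts2 promoter held 25 CpG sites, a number reached by 18.43% of the 32851 promoters of the same length, and that of its host H13 held 21. Nap1l5 and Nnat each held 17 CpG sites and Zrsr1 held 10, against a median of 7 over all promoters. Searched on both strands as TGCCGC and GCGGCA, the hexamer occurred 2 times at Nap1l5, 1 time at Mcts2 and 1 time at Nnat. It was not found in the promoter sequences of H13, Zrsr1 or Inpp5f, and 11.6% of all promoters held it. The 3500 bp methylation windows were not searched. For Inpp5f the sequence lay at the start of the gene, and its intronic promoter was not searched.

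The loci stood lower in the Padi6-mutant embryos in most runs, but no locus, run or window passed the threshold after correction over the whole table. Of the 16 runs, 15 were covered in 3 or more embryos of both groups and were tested; 14 had a lower mean in mutant than in control embryos and 1 (Zrsr1 run 3) a higher one. The median difference over these 15 runs was -6.60 percentage points, against -1.22 over all 30804 runs tested, of which 56.0% were lower. The runs of the loci were also more methylated in control embryos, with a median control mean of 26.7% against 10.8% over all runs. Among densely covered embryos the median difference was -13.7 points over the 13 runs of the loci that could be tested and -1.19 over all runs. In limma with Benjamini-Hochberg adjustment, 0 of the 15 runs passed an adjusted p under 0.05, the threshold used throughout, while 0.0584% of all runs passed; at an unadjusted p under 0.05, 2 of the 15 passed, both lower, against 4.28% of all runs lower at that level. For single windows, 0 of 17 tested passed the adjusted threshold, against 0.0372% of all windows. For whole loci 0 of 7 passed it, against 0.0584% of the 30796 loci and other runs tested beside them. At an unadjusted p under 0.05 in limma, 2 of the 17 windows were lower in mutant embryos, against 1468 of all 37645 windows. At that level 1 of the 7 loci was lower, against 1316 of the 30796 loci and other runs.

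**Figure D1:**
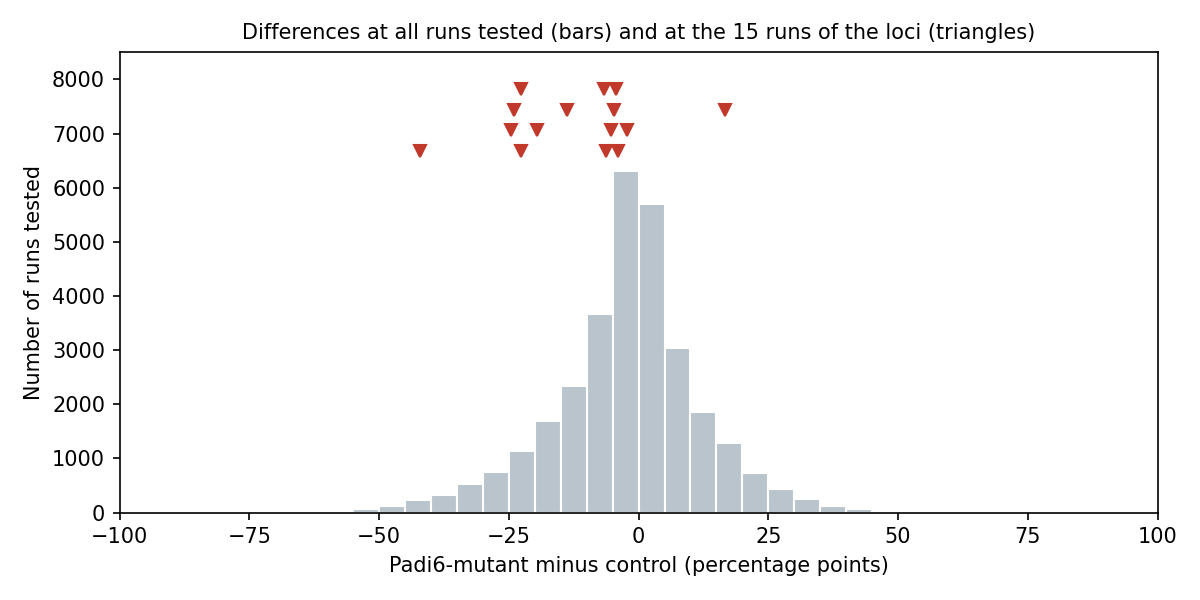
Differences in methylation between Padi6-mutant and control embryos (x axis, percentage points, mutant minus control) for all 30804 runs tested (grey bars, number of runs per bin of 5 points) and for the 15 tested runs of the imprinted loci (triangles, whose height has no meaning). The triangles run from -42.1 to 16.6 points, and 14 of 15 lie below 0.

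At the Mcts2 and H13 locus, run 2 had the largest difference of the 15 runs. Mcts2 is a retrogene copy of a translation factor gene, and H13 encodes signal peptide peptidase, a protease of the endoplasmic reticulum. The file names no genes, but RefSeq places H13 before Mcts2 along the chromosome, the order in which the single windows of run 1 (chromosome 2, 152508381 to 152511880) and run 2 (chromosome 2, 152525955 to 152529454) lie. In run 2 the 3 mutant embryos with a value stood at 6.67% (replicate 11), 0% (replicate 12) and 2.13% (replicate 14). The 8 control embryos with a value ran from 17.4% to 80.0%, with a median of 40.9%. Every mutant embryo lay below every control embryo, which was so at 1.07% of all runs tested. The means were 2.93% ± 3.41 (SD, n = 3) in mutant and 45.0% ± 17.8 (SD, n = 8) in control embryos, a difference of -42.1 points (SE 10.2, 95% interval from limma -64.6 to -19.5), and 1.34% of all runs had a lower difference. The limma adjusted p was 0.319. The exact two-sided permutation p over embryos was 0.00606, unadjusted, the smallest that this number of embryos can give. It was 1 of 22 such tests made over all embryos at loci and runs, where a locus of a single window counts as both. Further permutation tests were made in densely covered embryos and on differences between runs. The 3 mutant embryos are all densely covered, and against the 6 densely covered control embryos the difference was -41.9 points (exact permutation p = 0.0119, again the smallest possible).

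Run 1 of this locus was low in both groups in most embryos. The 3 mutant embryos stood at 0%, 8.33% and 0%, and the 8 control embryos ran from 0% to 100%, with a median of 2.00% and 4 of them at 0%. The value of 100% belongs to control replicate 7, a sparsely covered embryo. The difference was -13.9 points (SE 19.3, limma adjusted p = 0.861) with this embryo and -1.95 points without it. Whether run 2 differed more than run 1 was tested on the difference between both runs within each embryo, a test chosen after the values were seen. That difference was 0.15 ± 7.69 points in 3 mutant and 27.1 ± 38.7 points in 7 control embryos (SD), with an exact permutation p of 0.317. In densely covered embryos it was 0.15 ± 7.69 points (n = 3) and 39.3 ± 23.3 points (n = 6), with an exact permutation p of 0.0357, so this comparison turns on control replicate 7. Averaged over the windows with a value, the locus stood at 2.85% ± 1.61 (SD, n = 3) in mutant and 29.5% ± 21.8 (SD, n = 9) in control embryos (-26.6 points, SE 12.4, limma adjusted p = 0.816, exact permutation p = 0.0773). Control replicate 6 had a value in run 1 only (0%) and control replicate 8 in run 2 only (37.5%). Without control replicate 6 the locus difference was -30.3 points.

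At the Zrsr1 locus the first run was also lower in mutant embryos, but there the groups overlapped. Zrsr1 encodes a protein related to the small subunit of the splicing factor U2AF and lies in an intron of Commd1. RefSeq places the Zrsr1 start before both Commd1 starts it lists. Run 1 (chromosome 11, 22920215 to 22923714) is the first of the 3 runs of the locus. The nearer Commd1 promoter (22972817 to 22973116, GRCm38.p6) lies less than 3500 bp, the length of 1 window, after that of Zrsr1 (22971755 to 22972054). A single window can thus hold both starts, so this order does not tie run 1 to Zrsr1. The file does not say which gene a window belongs to. In run 1 the 7 mutant embryos with a value ran from 0% to 23.3%, with a median of 0% and 4 of them at 0%. The 7 control embryos ran from 5.26% to 50.0%, with a median of 26.5%. Of the mutant embryos, 6 of 7 lay below the lowest control embryo, and replicate 11 was the one at 23.3%. The means were 4.12% ± 8.57 (SD, n = 7) in mutant and 26.7% ± 18.9 (SD, n = 7) in control embryos, a difference of -22.6 points (SE 7.57, 95% interval -38.9 to -6.31). The limma adjusted p was 0.595 and the unadjusted exact permutation p 0.0134, and 8.50% of all runs had a lower difference. Among densely covered embryos the difference was -16.02 points (n = 3 and 6, exact permutation p = 0.238); of the 4 sparsely covered mutant embryos every one was at 0%, and a single sparsely covered control embryo had a value there, 33.3%.

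The other runs of the Zrsr1 locus were little methylated in control embryos. In run 2, which joins 2 overlapping windows (chromosome 11, 22931591 to 22935382), 4 of the 5 mutant embryos were at 0% and replicate 14 at 10.4%; the 6 control embryos ran from 0% to 20.8% with a median of 1.27%. Run 3 (chromosome 11, 22937519 to 22941018) was the single run with a higher mean in mutant embryos. There the 4 mutant embryos stood at 0%, 50.0%, 0% and 18.2% (replicates 11, 12, 14 and 19), and 6 of the 7 control embryos were at 0% and the remaining one at 3.03%. The difference of 16.6 points (SE 8.23, limma adjusted p = 0.819, exact permutation p = 0.109) came from 2 mutant embryos and was 5.63 points without replicate 12. Within embryos, run 1 exceeded run 2 by 3.69 ± 11.8 points in 5 mutant and 22.5 ± 21.8 points in 5 control embryos (SD), and that contrast, also chosen after the values were seen, had an exact permutation p of 0.135. Averaged over the windows with a value, the locus stood at 4.70% ± 5.08 (SD, n = 7) in mutant and 10.3% ± 10.999 (SD, n = 9) in control embryos (-5.58 points, SE 4.53, limma adjusted p = 0.819). Embryos differed in the runs behind this mean. Mutant replicates 16 and 18 and control replicate 8 had run 1 only, control replicate 7 run 2 only and control replicate 6 run 3 only. The locus difference was -2.70 points without control replicate 8, at 33.3%, and -0.92 points among densely covered embryos.

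**Figure D2:**
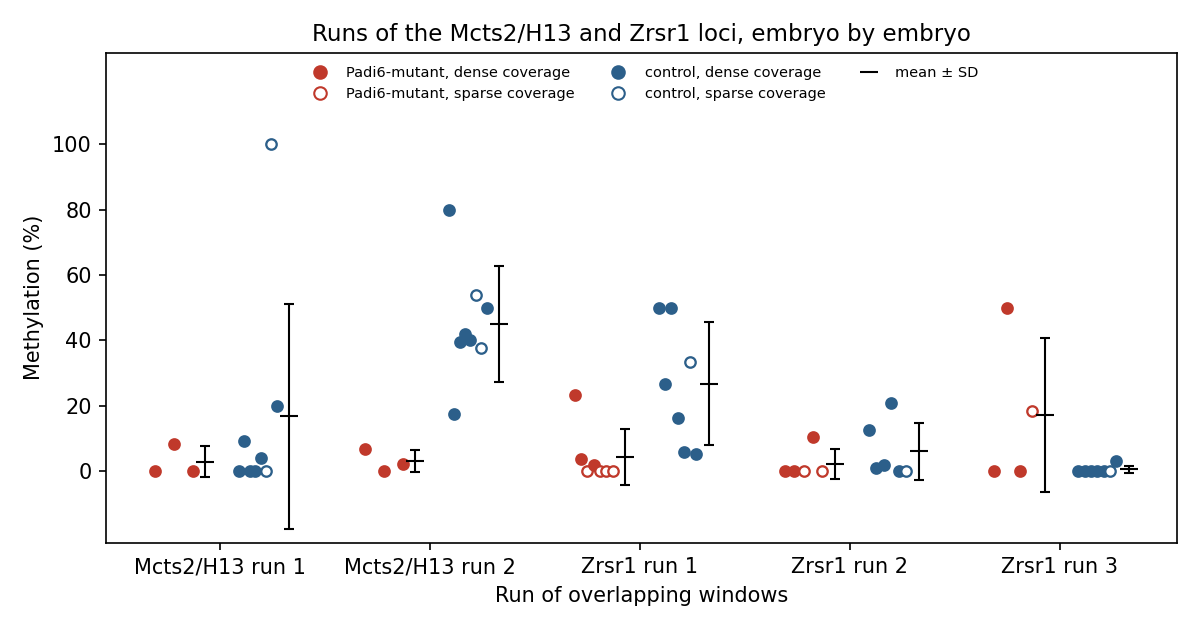
Methylation (y axis, percent) at the runs of the Mcts2 and H13 locus and of the Zrsr1 locus (x axis) in each embryo with a value, Padi6-mutant left of control. Filled points are densely and open points sparsely covered embryos, and bars give the mean and SD; at Mcts2/H13 run 2 the 3 mutant embryos lie at 0% to 6.67% and the control embryos at 17.4% to 80.0%.

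Nap1l5 had a single window (chromosome 6, 58883562 to 58887061). The gene encodes a member of the nucleosome assembly protein 1 family and is a retrogene in an intron of Herc3. The 4 mutant embryos with a value stood at 21.5% (replicate 11), 9.62% (replicate 12), 6.25% (replicate 14) and 0% (replicate 19). The 7 control embryos ran from 0% to 95.8%, with a median of 34.6%. All 4 mutant embryos were lower than the control mean, but the groups overlapped, since 3 control embryos stood at 0%, 10.0% and 11.1%. The means were 9.35% ± 9.05 (SD, n = 4) in mutant and 33.8% ± 32.2 (SD, n = 7) in control embryos, a difference of -24.5 points (SE 15.8, 95% interval -59.4 to 10.5, limma adjusted p = 0.819, exact permutation p = 0.158). Without control replicate 5, at 95.8%, the difference was -14.2 points.

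Inpp5f, which encodes an inositol phosphatase, gave no difference past the threshold in any of its 3 runs. Its first window (chromosome 7, 128210052 to 128213551) lies 73707 bp before the second, and the file does not say which of the 3 windows covers the imprinted intronic promoter. In the first, the 3 mutant embryos were at 0% and the 7 control embryos ran from 0% to 14.3% with a median of 4.55%. In the second (chromosome 7, 128287259 to 128290758), the 5 mutant embryos stood at 0%, 12.1%, 25%, 0% and 100% (replicates 11, 12, 14, 19 and 20), and the 7 control embryos ran from 0% to 100% with a median of 19.6%. Both groups thus covered the whole scale there, but each value of 100% came from a sparsely covered embryo. Densely covered embryos ran from 0% to 25% in the mutant group and from 0% to 76.9% in the control group. The third window (chromosome 7, 128291413 to 128294912) held the highest control mean of the 15 runs, 46.5% ± 10.0 (SD, n = 4), with control embryos at 57.1%, 45.5%, 33.3% and 50.0%. The 3 mutant embryos stood there at 83.3% (replicate 11), 41.7% (replicate 14) and 0% (replicate 15), so that they lay above, within and below the control range. The locus mean was 24.3% ± 36.8 (SD, n = 7) in mutant and 30.3% ± 30.9 (SD, n = 8) in control embryos (-6.04 points, SE 16.7, 95% interval -41.7 to 29.6, limma adjusted p = 0.931). Without control replicate 6, a sparsely covered embryo at 100%, the difference was 3.91 points, and without mutant replicate 20, also sparsely covered and at 100%, it was -18.7 points. Embryos differed in the windows behind the locus mean. Control replicate 6 and mutant replicates 19 and 20 had the second window only. Control replicate 8 and mutant replicate 13 had the first only, and mutant replicate 15 the third only. Taken as deviations from window means, the difference was -11.4 points. Among densely covered embryos the locus difference was -0.44 points, with -7.70, -10.2 and 16.02 points at the 3 windows in order.

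Nnat encodes neuronatin, a small membrane protein of the endoplasmic reticulum known from the developing brain. Its locus had 5 windows in 4 runs between 157386890 and 157416194 on chromosome 2, and the file does not say which of them belong to Nnat and which to its host Blcap. Averaged over the windows with a value, the 8 mutant embryos ran from 0% to 27.2% with a median of 14.8%. The 9 control embryos ran from 12.3% to 80.0% with a median of 30.4%. The control mean was above all 8 mutant embryos, and 4 of these were also below the lowest control embryo. The means were 15.1% ± 10.3 (SD, n = 8) in mutant and 33.3% ± 20.9 (SD, n = 9) in control embryos, a difference of -18.2 points (SE 7.92, 95% interval -35.0 to -1.49). The limma adjusted p was 0.764 and the unadjusted exact permutation p 0.0276. Among densely covered embryos the exact permutation p was 0.190 (n = 3 and 6). Embryos differed in the runs behind the locus mean. Control replicate 7, at 80.0%, had run 3 only. Mutant replicate 13, at 0%, had run 1 only and mutant replicate 16, at 5%, run 2 only. Without control replicate 7 the difference was -12.4 points.

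The 4 runs of the Nnat locus had no fixed order of differences. Run 1 stood at 15.3% ± 20.0 (SD, n = 6) in mutant and 37.9% ± 34.6 (SD, n = 7) in control embryos (-22.6 points, SE 15.2, limma adjusted p = 0.819), and without control replicate 8, a sparsely covered embryo at 100%, the difference was -12.3 points. Run 3 averaged 7.69% ± 9.65 in 5 mutant and 27.2% ± 29.8 in 9 control embryos (SD), with mutant embryos from 0% to 19.3% and control embryos from 0% to 80.0% (-19.5 points, SE 13.3, limma adjusted p = 0.819; -12.9 points without control replicate 7). Runs 2 and 4 differed by -4.27 points (SE 9.32) and -2.24 points (SE 18.2). Among densely covered embryos the differences at runs 1 to 4 were -13.7, -17.7, -16.04 and -4.78 points. At run 2 mutant replicate 15 stood at 50.0% and control replicate 3 at 56.3%, so the highest embryos of both groups lay close to each other.

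Peg13, a long noncoding RNA gene, had a single window (chromosome 15, 72681674 to 72685173). The 5 mutant embryos with a value stood at 35.5%, 4.17%, 6.90%, 0% and 14.3% (replicates 11, 12, 14, 15 and 16). The 7 control embryos ran from 0% to 50.0%, with a median of 15.0%. The groups overlapped over most of their range. The means were 12.2% ± 14.04 (SD, n = 5) in mutant and 17.6% ± 17.8 (SD, n = 7) in control embryos (-5.38 points, SE 9.20, 95% interval -25.5 to 14.8, limma adjusted p = 0.883, exact permutation p = 0.595). Without control replicate 3, at 50.0%, the difference was 0.024 points, and without mutant replicate 11, at 35.5%, it was -11.2 points.

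Impact encodes an inhibitor of the stress kinase GCN2 and had 2 windows on chromosome 18. In the second (13091556 to 13095055) all 4 mutant embryos with a value (replicates 11, 12, 14 and 17) stood at 0%. The 6 control embryos there ran from 0% to 66.7%, with 3 of them at 0% and the others at 21.4%, 56.0% and 66.7%. The difference of -24.0 points (SE 14.4, 95% interval -56.4 to 8.38; -15.5 points without control replicate 10) had a limma adjusted p of 0.819 and an exact permutation p of 0.300. The first window (13085909 to 13089408) had a value in 2 mutant embryos, 0% and 21.4%, and was not tested; its 7 control embryos ran from 0% to 16.3% with 5 at 0%. The locus mean was 2.68% ± 5.36 (SD, n = 4) in mutant and 10.0% ± 14.7 (SD, n = 9) in control embryos (-7.34 points, SE 7.50, limma adjusted p = 0.825), and the difference was -4.08 points without control replicate 2 and -4.43 points without control replicate 10.

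**Figure D3:**
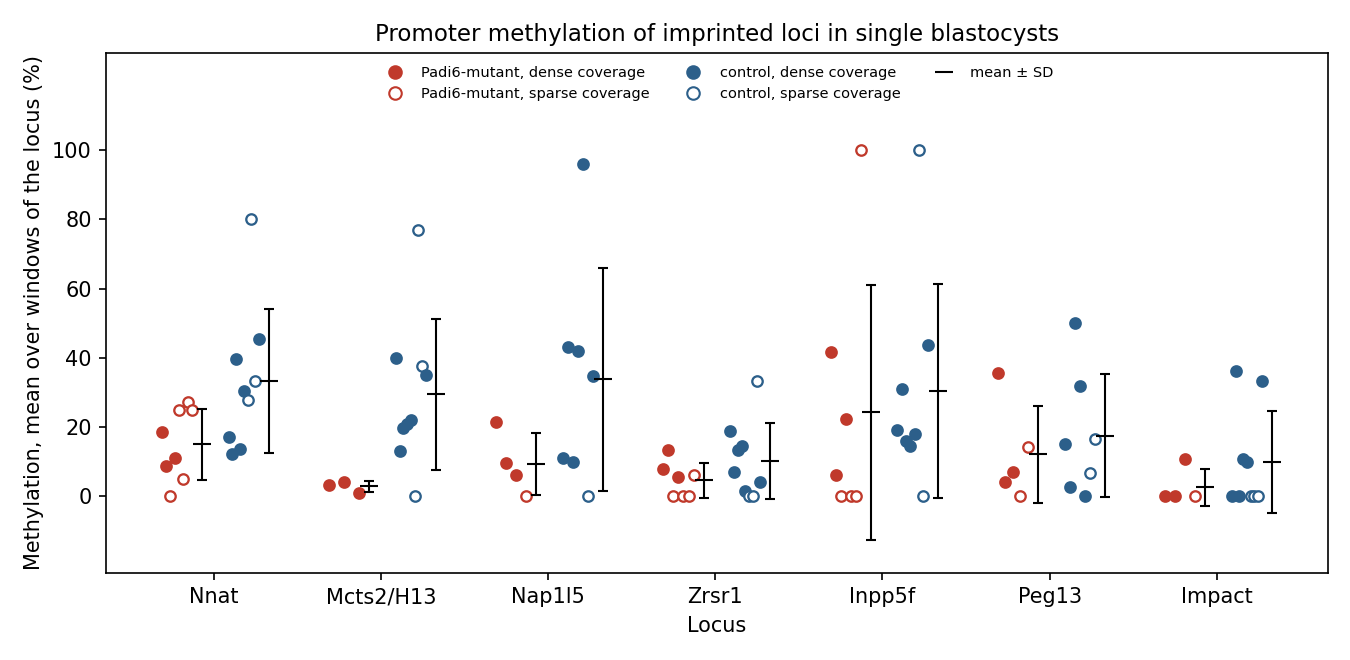
Methylation averaged over the windows of each locus (y axis, percent) in each embryo with a value, with the 7 loci along the x axis and Padi6-mutant left of control. Filled points are densely and open points sparsely covered embryos, and bars give the mean and SD. The mutant mean lies below the control mean at all 7 loci, and both groups overlap at each of them. At Mcts2/H13 the overlap comes from control replicate 6, which had a value in run 1 only.

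In control embryos the runs of these loci differed widely in level. The mean over control embryos was highest at Inpp5f run 3 (46.5%) and Mcts2/H13 run 2 (45.0%), followed by Nnat run 1 (37.9%), Nap1l5 (33.8%) and Inpp5f run 2 (33.7%), and it was lowest at Zrsr1 run 3 (0.43%). Neighbours among these first 5 differed by less than the SD between embryos. Single embryos were far from the mean at many runs, from 0% to 100% at Nnat run 1 and from 0% to 95.8% at Nap1l5. Few reads per window make levels coarse, and their part in this spread was not tested.

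Set side by side in the same embryos, the runs were not low together in every mutant embryo. Over the 10 runs with a value in all 9 densely covered embryos, the mean was 12.7%, 12.7% and 8.90% in mutant replicates 11, 12 and 14. The 6 control embryos ran from 16.1% to 39.2%, so none of them was as low as a mutant embryo. This parting depends on Mcts2/H13 run 2, which is 1 of the 10 runs. Without that run the mean of control replicate 4 lay below those of mutant replicates 11 and 12. Over all runs of the table the same embryos did not part in this way, with means of 11.6%, 7.47% and 18.6% in the mutant embryos against 12.99% to 17.4% in the control embryos. Mutant replicate 14, the highest of the 9 over the whole table, was at 0% at 5 of 16 runs of the loci. Replicate 11 stood at 83.3% at Inpp5f run 3, 35.5% at Peg13 and 23.3% at Zrsr1 run 1, and was at 0% at 6 of 15 runs. Replicate 20, sparsely covered, had a value at 3 runs only, of 100%, 50.0% and 0%.

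**Figure D4:**
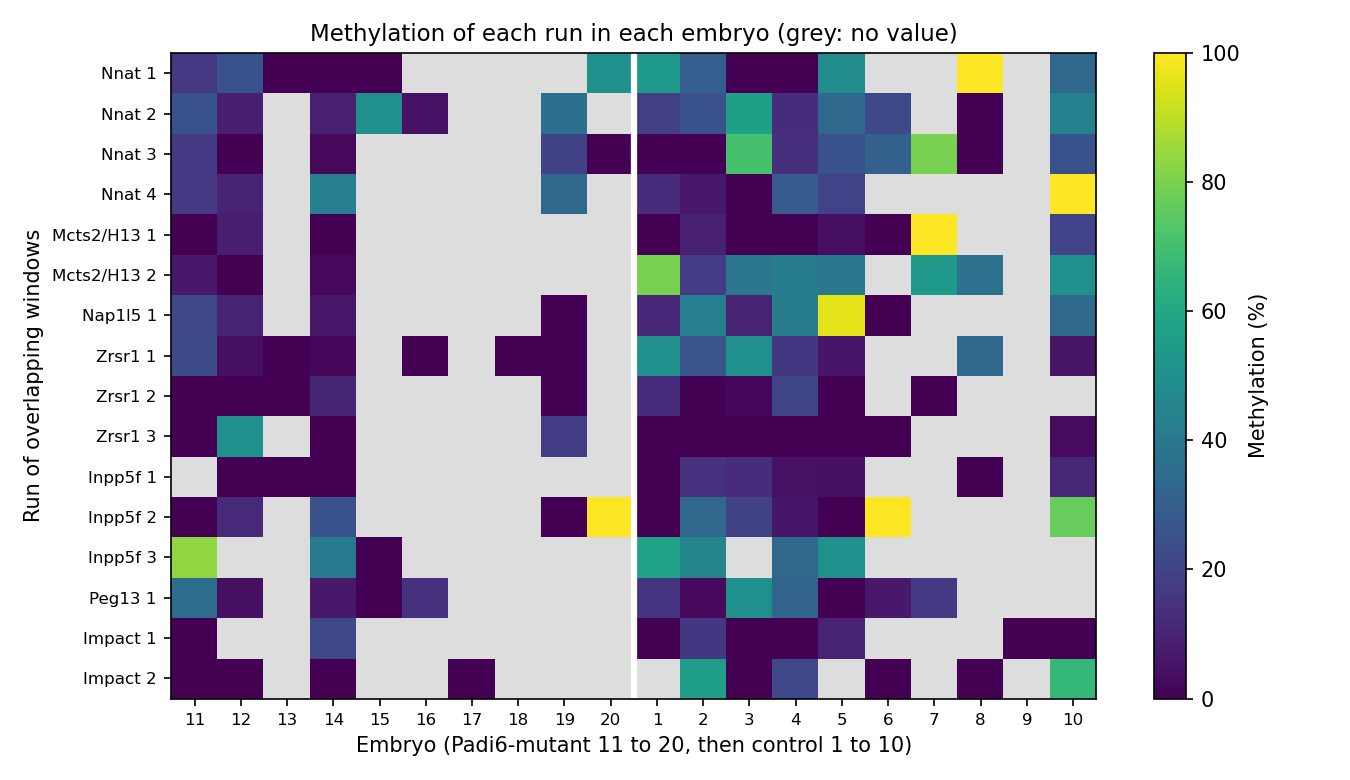
Methylation (colour, percent) at the 16 runs of the 7 loci (rows) in each of the 20 embryos (columns), with Padi6-mutant replicates 11 to 20 left and control replicates 1 to 10 right. Grey cells have no value; mutant embryos gave 76 of 180 possible window values and control embryos 125 of 180.

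Counted over single windows, levels of at least 25%, a bound chosen after the values were seen, made up 19.7% of the 76 values of mutant embryos and 37.6% of the 125 values of control embryos. Over all windows of the table they made up 20.3% in mutant and 25.3% in control embryos. Among densely covered embryos, such levels made up 9 of 50 values (18%) in mutant and 38 of 101 values (37.6%) in control embryos at the loci. Over all windows they made up 20.4% in densely covered mutant and 25.3% in densely covered control embryos. Values of exactly 0% made up 46.1% in mutant and 33.6% in control embryos at the loci, against 54.5% in mutant and 44.9% in control embryos over all windows. Among densely covered embryos they made up 38% in mutant and 30.7% in control embryos at the loci, against 46.4% and 41.2% over all windows. Values of 1 embryo are not independent, so these shares are given without a test.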

How the data were processed

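DNA of 20 single blastocysts was bisulfite-sequenced after the RNA had been removed. Per the submitters' processing notes, Trim Galore 0.4.4 and Bismark 0.18.2 were used with GRCm39. The authors deposited 1 table of methylation in percent, held as a score because 1594 of 491705 values exceed 100; these were read as percents that lost their decimal point and divided by 1000 (0 of them in the windows described). The sources used here do not say how calls were combined in a window or whether a coverage minimum applied, and without counts no binomial interval can be given. After 46 repeated rows were dropped, 54034 windows remained.

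Levels per embryo were averaged over those windows of a run or locus that had a value, so embryos can differ in the windows averaged. Differences were tested with limma 3.58.1 in R 4.3.3 (two-sided) over all windows, all runs, or a table of the 7 loci and all other runs, with at least 3 embryos per group and Benjamini-Hochberg adjustment over all rows. limma was tested on simulated data, made by shuffling values over embryos and raising some runs by a known shift in mutant embryos. It called no run when no shift was added, but it missed most of the raised runs. A run that does not pass the threshold may therefore still differ. Lowered runs were not simulated, so the share missed among them is unknown. Exact permutation tests over embryos stand beside limma, unadjusted. Embryos with values in at least 25000 windows are called densely covered. All tested runs of the loci are described, by rule. Nothing in the labels shows that embryos came from separate mothers, so p-values refer to the spread between embryos only. The members and lists were chosen with earlier results of these data known. Other maternally methylated imprinted genes were not analysed here, since windows carry no gene names and the gene table is on GRCm38.p6.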

Additional observations from a re-analysis of the deposited data

Results flagged for a closer look

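In 35 sets of values from 1 group at a locus or run, 10 held an embryo whose gap to its nearest neighbour took up more of the range than Dixon's 95% limit, where chance gives about 1 in 20 for normally distributed values. That rate does not hold here: the sets share embryos, many values are 0, and in 3 of the 10 every other embryo of the set was at 0%, so that any other value would pass. In mutant embryos these were replicate 11 at 23.3% in Zrsr1 run 1, replicate 14 at 10.4% in Zrsr1 run 2, replicate 20 at 100% both in Inpp5f run 2 and in the Inpp5f locus mean, and replicate 14 at 10.7% in the Impact locus mean. In control embryos they were replicate 7 at 80.0% in the Nnat locus mean and at 100% in Mcts2/H13 run 1, replicate 10 at 100% in Nnat run 4 and at 3.03% in Zrsr1 run 3, and replicate 6 at 100% in the Inpp5f locus mean. Control replicate 7 and mutant replicate 20 are sparsely covered, with values of exactly 100% in 8.92% and 7.05% of their windows.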

How the results depend on the processing

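The number of runs and of windows of the loci past the threshold was 0 under each alternative that could be fitted: at least 5 or 7 embryos per group, a variance trend with robust fitting, values above 100 left out, densely covered embryos alone, and each embryo left out in turn. Among sparsely covered embryos alone no run or window of the loci had enough values, and of the loci only Nnat (-30.6 points) and Zrsr1 (-9.60) could be fitted. Among densely covered embryos the locus differences were -13.6 points at Nnat, -22.3 at Mcts2 and H13, -27.02 at Nap1l5, -0.92 at Zrsr1, -0.44 at Inpp5f, -4.39 at Peg13 and -11.5 at Impact. Taking the median over windows, or deviations from window means, moved no locus across the threshold or across 0. With at least 7 embryos per group, Zrsr1 run 1 was the only run of the loci tested (limma adjusted p = 0.490). For Mcts2/H13 run 2 the limma adjusted p ranged from 0.201 to 0.757. At Nnat the difference (-18.2 points) missed the threshold, and its unadjusted p was 0.0346 in limma and 0.0276 in the exact permutation test. With 1 embryo left out, locus differences ran from -20.8 to -12.4 points at Nnat, -30.3 to -20.7 at Mcts2 and H13, -30.1 to -14.2 at Nap1l5, -7.04 to -2.70 at Zrsr1, -18.7 to 3.91 at Inpp5f, -11.2 to 0.024 at Peg13 and -10.0 to -4.08 at Impact. Single runs that changed sign with 1 embryo left out were Nnat run 4 (-7.96 to 12.2), Inpp5f run 2 (-24.4 to 4.82) and Inpp5f run 3 (-25.6 to 16.02), and the last was also 16.02 in densely covered embryos. No other alternative reversed a locus. In these refits a locus or run with 2 values in a group was kept, a choice made after seeing the data. No paired analysis was possible because mutant embryos carry the numbers 11 to 20 and control embryos 1 to 10, so no number is shared. Unknown read depth limits all levels.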
